A study of Mus musculus with 50 samples.

Results

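The quadriceps is the large muscle of the front thigh, and here it was taken whole from clamped male mice after clozapine N-oxide (CNO). All mice carried hM3DGq, an engineered receptor that CNO activates. Mice that were Gfral Cre-positive (TG) express it in neurons with the GDF15 receptor GFRAL, and Cre-negative mice (WT) do not. The libraries were all those titled quadriceps, CNO, clamped, 10 TG and 10 WT, out of 50 libraries in the series. All 20 libraries came from mice given CNO at 1 mg/kg, and no group without CNO was analysed here. The design text names quadriceps as a tissue with lowered glucose uptake, and the comparison asks which muscle transcripts differ between TG and WT after CNO. Carrying Cre and activation of these neurons differ together between the genotypes. Without a group not given CNO they cannot be told apart. Gene expression was read from the 3′ ends of polyadenylated transcripts. Of 55414 gene rows, 21711 had at least 1 count and 8070 passed the count filter and were tested. For the fat comparison further on, perigonadal white adipose tissue (pgWAT) of mice with the same genotypes and dose was sampled 1 h after CNO (9 TG, 9 WT) and 6 h after CNO (6 TG, 6 WT). The labels do not state that each library is a separate mouse, so p-values measure the spread between these libraries, which may in part be technical.

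As background, mouse quadriceps is built mainly of fast fibres that burn glucose and glycogen. Its fibres keep a set of transcription factors from development, such as MYOD, whose activity is held back by inhibitors without a DNA-binding domain (ID proteins) and by Notch targets. Adult muscle also answers hormones within hours: insulin opens glucose uptake, adrenal glucocorticoids turn on genes of protein breakdown and metal binding, and amino acid supply sets the level of the transporters that bring amino acids in.

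The libraries held 959980 to 2613672 gene counts, so that a count of 0 allows a level of up to 1.15 to 3.13 CPM (counts per 1000000 gene counts, TMM-scaled where levels of genes are given) in a library. WT replicate 6 was the deepest. Markers of skeletal muscle fibres summed to 46764 to 65192 CPM in WT and 51933 to 58415 CPM in TG. Of 14 marker lists for cell types, 12 had members that passed the count filter, and none of those was called by edgeR or by DESeq2, the tests used below, with an unadjusted p under 0.05 in edgeR for 1 marker higher and 3 lower in TG. The neutrophil and liver lists had no tested member, and the lymphocyte list had 1. A few libraries stood apart. Inducible heat shock transcripts were at 2796 CPM in WT replicate 2 and 1565 CPM in WT replicate 10, against 35.6 to 280.8 CPM in the other 18. The 8 liver transcripts reached 232 CPM in WT replicate 2, and the neutrophil markers reached 490 CPM in TG replicate 5 and 104 CPM in TG replicate 2. The white adipocyte markers summed to 215 to 626 CPM in WT and 146 to 431 CPM in TG, and the point estimates of all 5 tested members were below 0 without passing the test. In whole muscle, fewer cells of a type and less RNA per cell cannot be told apart. Gfral itself had 0 counts over the 20 libraries, which allows up to 0.120 CPM, and Gdf15 had 14 in all, so neither checks the genotype labels.

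After TMM scaling and edgeR's quasi-likelihood F test with Benjamini-Hochberg adjustment, 164 genes (2.03% of those tested) had an adjusted p under 0.05, 88 higher in TG (1.09%) and 76 lower (0.942%). Of these, 108 (1.34%) stayed called with the same sign in each of the 20 fits that left out 1 library, and are called held below. DESeq2 called 179 genes (1.60% of those it tested), 147 of them among the 164. The held genes were 59 higher, with a median log2 change of 0.72, and 49 lower, with a median of -0.61, beside a median of -0.0034 over all tested genes. Of the held genes, 22 changed by at least 2-fold. In 24 genes, all of them held, the 10 TG values did not overlap the 10 WT values (0.297% of tested genes), and in 97 of the 108 every TG library lay on the same side of the WT mean. Since the held genes were chosen from these same libraries, such agreement in part follows from the choice, here and for single genes below. Its share over all tested genes was not counted. On the second principal component, which carried 10.3% of the variance, all 10 TG libraries had positive and 9 of 10 WT libraries negative scores, the exception being WT replicate 1. Below, a level is given as the median over the 10 libraries of a genotype with the lowest and highest library in parentheses, and a change as the log2 change of TG over WT ± SE. The gene lists used below were chosen with earlier results of these data known, so the number of calls in a list in part follows from that choice. Each such number is to be read beside the 2.03% called over all tested genes. A single call in a list is a result for that gene only.

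**Figure D1:**
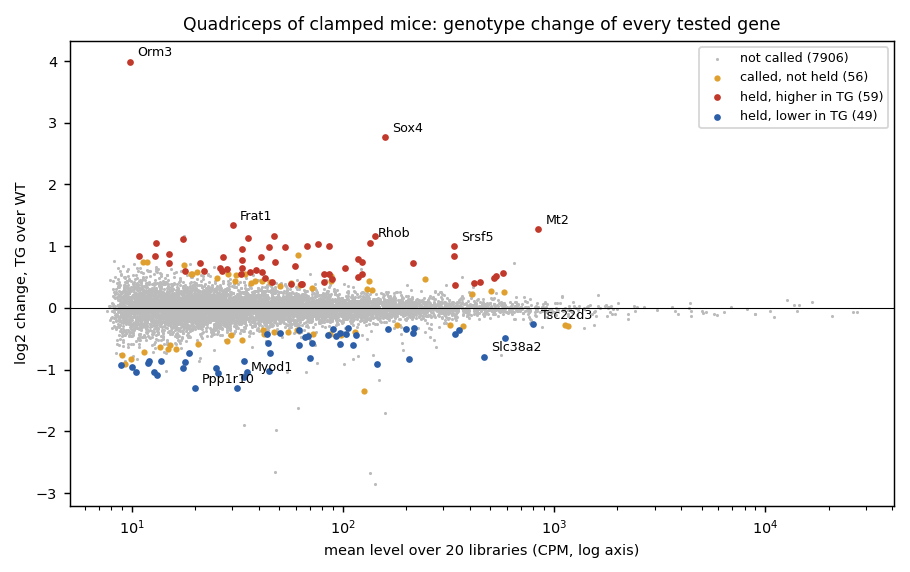
Log2 change of TG over WT (vertical) against the mean level over the 20 quadriceps libraries in CPM (horizontal, log axis), 1 point per tested gene. The 59 held higher genes are red, the 49 held lower genes blue and the 56 called but not held genes orange, and Sox4 and Orm3 lie farthest above the others.

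Of 16 tested genes of the contractile apparatus of the fast fibre, 1 was called, where 2.03% of all tested genes were called. Mylk2, the kinase that phosphorylates the regulatory light chain of skeletal myosin and so raises force after repeated contraction, fell. Its median level was 401 CPM (332 to 522) in WT and 297 CPM (276 to 392.4) in TG, a log2 change of -0.36 ± 0.080 with an adjusted p of 0.00850. All 10 TG libraries lay below the WT mean, although the ranges overlap. The other 15 were not called. Myh4, the fastest myosin heavy chain and the most counted of the list, had 21689 ± 3899.9 CPM (mean ± SD, n = 10) in WT and 19766 ± 1305 in TG, with an adjusted p of 0.606. Tpm1, Tnnc2 and Pvalb, coding for tropomyosin, fast troponin C and the calcium buffer parvalbumin, had log2 changes of -0.10, -0.018 and -0.061 and were not called. The list's median was -0.088.

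The slow-fibre list had no called member among 7 tested, by edgeR or by DESeq2, and 1 member higher at an unadjusted p under 0.05. All 7 point estimates were above 0, with a median of 0.54. Myl3, the slow essential light chain, was at 97.1 ± 93.5 CPM (mean ± SD) in WT and 148 ± 127 in TG, so the spread within each genotype was close to its mean. Atp2a2, the slow calcium pump, had a log2 change of 0.54 ± 0.32 with an adjusted p of 0.574. Myh7, the slow myosin heavy chain, was too rare to be tested: it had 78 counts over the WT and 216 over the TG libraries, of which 85 came from TG replicate 5. That library also had the highest summed slow-fibre level, 1791 CPM. The 36 Z-disc, M-band and filament genes, led by titin (Ttn, log2 change -0.060), nebulin (Neb, -0.058) and skeletal actin (Acta1, -0.092), included no call by either tool and had a median log2 change of -0.063. At an unadjusted p under 0.05, 6 of them were lower. The 23 genes of excitation-contraction coupling, among them the calcium release channel gene Ryr1 (log2 change -0.13 ± 0.067), had no edgeR call and 1 with DESeq2, and at an unadjusted p under 0.05 there were 1 higher and 3 lower. None of the 8 tested genes of the neuromuscular junction was called by either tool or had an unadjusted p under 0.05.

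Regulators of muscle identity included several calls. Of 17 tested myogenic and Notch genes, 4 fell and 1 rose, with Myod1 and Id1 held. Myod1, at chr7:46376474-46379099, + strand (GRCm38), codes for a master transcription factor of the muscle lineage. Its median level was 42.3 CPM (26.3 to 92.5) in WT and 21.8 CPM (13.96 to 29.5) in TG. The log2 change was -1.11 ± 0.17 (adjusted p 1.35e-04), with all 10 TG libraries below the WT mean. The genotypes overlap only through WT replicate 8 and TG replicate 7. WT replicate 2 gave the highest value. Without it and WT replicate 10, the libraries of high heat shock level, the change was -0.90 with an adjusted p of 7.25e-05.

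Id1, an inhibitor that binds the partners of MYOD and a classic target of BMP signalling, fell too. Its median level was 53.1 CPM (40.7 to 80.7) in WT and 31.5 CPM (21.4 to 50.03) in TG, with 3 libraries of each genotype in the shared range. This was a log2 change of -0.74 ± 0.15 (adjusted p 0.00281) and of -0.58 (adjusted p 0.0136) without WT replicates 2 and 10, which were its highest values. Its relative Id3 also fell (log2 change -0.36 ± 0.10), as did the Notch target Hey1 (-0.77 ± 0.20), while the Notch target Hes1 rose (0.85 ± 0.20, mean 43.6 CPM in WT and 79.1 CPM in TG). These calls were not held: Id3 was called in 5 of the 20 fits without 1 library, and Hes1 and Hey1 in 11 each, with adjusted p-values up to 0.111, 0.0636 and 0.0792. Msc, which codes for musculin, a helix-loop-helix repressor related to MYOD, was held lower, with a log2 change of -1.04 ± 0.23 (adjusted p 0.00684). Mef2a, Mef2c and Mef2d, the most counted transcription factors of the list, were not called: Mef2c had 1797 ± 170.2 CPM (mean ± SD) in WT and 1808 ± 98.5 in TG.

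Sox4 had the second largest positive log2 change of the held genes, after Orm3. It codes for a transcription factor of the SRY box family, broadly active in progenitor cells, and is a gene without introns at chr13:28948919-28953713, - strand. Its median level was 30.1 CPM (18.5 to 92.7) in WT and 250.3 CPM (193 to 439.8) in TG. The genotypes were far apart, with WT replicate 6 as the highest WT library. The log2 change was 2.77 ± 0.27, with an adjusted p of 3.62e-06. Fst, coding for follistatin, the secreted binder of activins and myostatin, rose from a median of 10.1 CPM (5.40 to 16.1) in WT to 20.6 CPM (12.7 to 29.5) in TG (log2 change 0.88 ± 0.19, adjusted p 0.00551). It was the only call among 13 tested myokine genes. Myostatin itself (Mstn, log2 change 0.21 ± 0.12, adjusted p 0.546) was not called. Of 22 tested genes of TGF-beta, BMP and myostatin signalling, Fst and Id1 were the only calls.

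**Figure D2:**
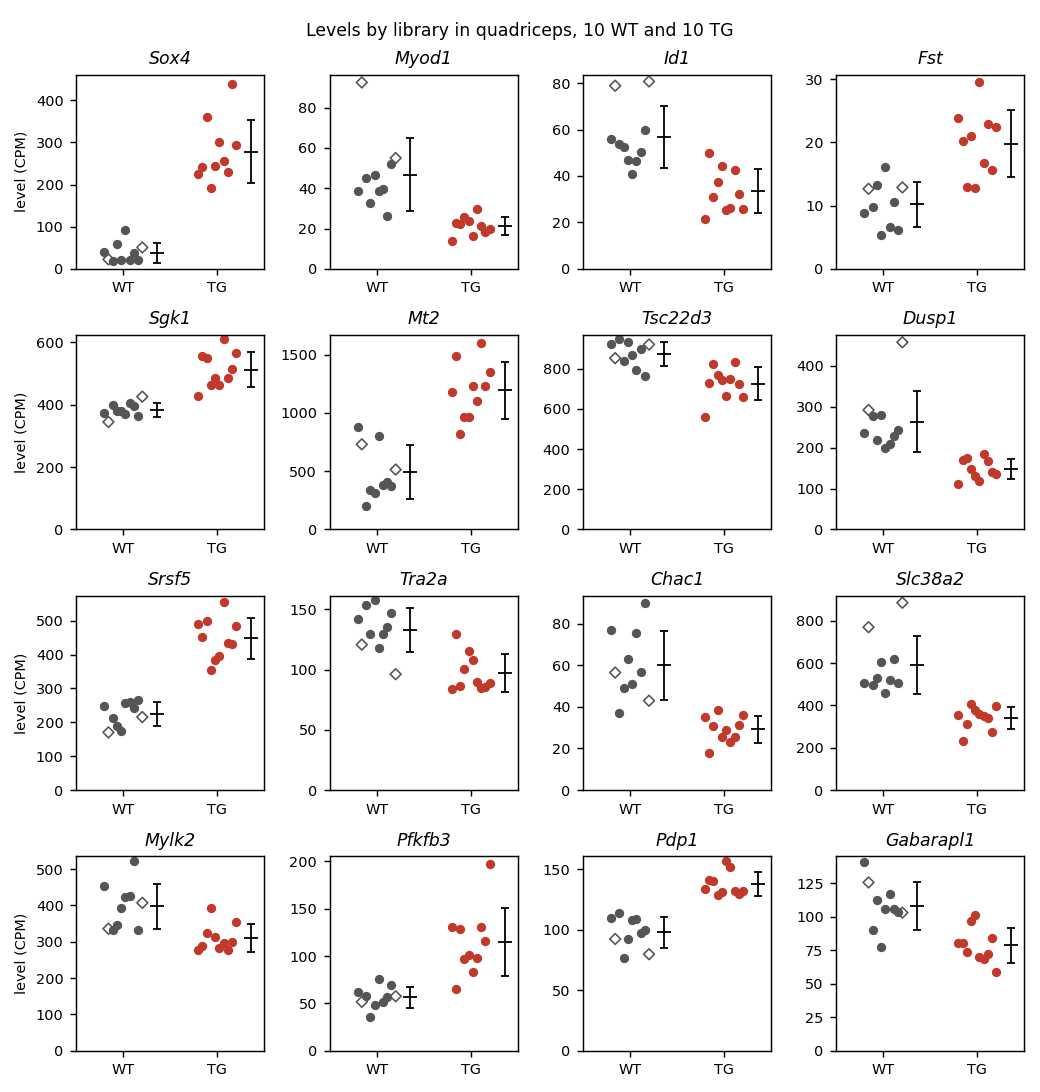
Level in CPM (vertical, from 0) of 16 genes in the 10 WT (grey) and 10 TG (red) quadriceps libraries, 1 point per library, with the mean and SD as the black mark. Open diamonds are WT replicates 2 and 10. The genotypes are separate for Sox4, Sgk1, Dusp1, Srsf5, Slc38a2 and Pdp1, and the diamonds lie at the top of the WT values for Myod1, Id1, Dusp1 and Slc38a2.

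Genes that glucocorticoids induce split in direction. Of 28 tested members, 6 rose, all held, and 3 fell, with a median of 0.050, where 2.03% of all tested genes were called. Since the members were chosen with earlier results known, these numbers do not show that the list is enriched. Sgk1, a kinase of salt and nutrient transport, rose from a median of 380.4 CPM (345 to 426) in WT to 500.5 CPM (429 to 609.8) in TG, without overlap (log2 change 0.42 ± 0.064, adjusted p 3.99e-05). Nfkbia, the inhibitor of NF-kB, also separated the genotypes, with medians of 467 CPM (398 to 521) in WT and 706 CPM (562 to 742) in TG (log2 change 0.56 ± 0.064). Cdkn1a, the cell cycle inhibitor p21, rose from a median of 81.4 CPM (53.9 to 129) in WT to 149 CPM (93.8 to 195) in TG (log2 change 0.80 ± 0.16). Ddit4, an inhibitor of mTOR, rose from 415 CPM (275 to 581) to 625 CPM (474 to 665) (log2 change 0.49 ± 0.10), with 3 WT libraries within the TG range. Errfi1, an inhibitor of the EGF receptor, rose from 71.02 CPM (46.2 to 108) to 108 CPM (83.7 to 121) (log2 change 0.46 ± 0.11), and Mt2 is described below. In the other direction went Tsc22d3, which codes for the anti-inflammatory leucine zipper protein GILZ, and Dusp1, the phosphatase that switches off stress kinases. Tsc22d3 had a median of 882 CPM (765 to 947) in WT and 737 CPM (561 to 831) in TG, and every TG library lay below the WT mean (log2 change -0.27 ± 0.064, adjusted p 0.0158). Dusp1 fell from a median of 239 CPM (199 to 458) in WT to 145 CPM (112 to 183) in TG, without overlap (log2 change -0.83 ± 0.13, adjusted p 3.68e-04). Its highest WT value came from replicate 10, and without WT replicates 2 and 10 the change was -0.67 (adjusted p 8.47e-06). Dusp1 overlaps Ergic1 on the opposite strand, and the strand setting of the counting is not given in the sources used here. Glul, glutamine synthetase, fell (log2 change -0.28 ± 0.076, adjusted p 0.0467) but was called in 5 of 20 fits without 1 library, and had an adjusted p of 0.166 without WT replicates 2 and 10.

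Fkbp5, the chaperone gene that glucocorticoids raise in most tissues, did not pass the test (mean ± SD 247 ± 54.997 CPM in WT and 298 ± 37.6 in TG, log2 change 0.26 ± 0.11, adjusted p 0.267). A gene model of unproven status inside Fkbp5 on the same strand, AC154912.3, was held higher, from a median of 35.8 CPM (18.9 to 45.2) in WT to 69.7 CPM (57.5 to 84.1) in TG without overlap (log2 change 0.99 ± 0.11). It was picked out after its values were seen, and how the counting divided reads between the 2 genes is not given in the sources used here. Klf9, a glucocorticoid-induced zinc finger factor, was not called (log2 change 0.075 ± 0.061). Pdk4, the kinase that closes pyruvate dehydrogenase in fasting, lay at 43.8 to 405 CPM in WT and at 45.1 to 238 CPM in TG, and was not called (log2 change -0.051 ± 0.45).

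Promoter sequence was searched for the letters of response elements. A match is one of letters only, and whether a factor binds there was not tested. The 250 bases before each RefSeq start (GRCm38.p6) were available for 6364 of the 8070 tested genes and were searched on both strands for 7 motifs. The full glucocorticoid response element, AGAACA and TGTTCT with 3 bases between them, was found for 1 of the 6364 (0.0157%), and that gene was Sgk1, before 1 of its 6 starts. The palindrome is in capitals, and the sequence is shown because Sgk1 separated the genotypes completely.
Sgk1, chr10:21993640-21993889, + strand: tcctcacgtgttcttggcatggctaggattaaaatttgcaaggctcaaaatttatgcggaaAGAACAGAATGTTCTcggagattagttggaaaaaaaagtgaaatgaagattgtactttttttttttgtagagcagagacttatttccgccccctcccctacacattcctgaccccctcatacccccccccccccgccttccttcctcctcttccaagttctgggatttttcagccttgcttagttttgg
A shorter or mismatched element, or one farther away, would not be seen by this search.

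Mt2 and Slc30a1, which act in metal handling, rose. No list of metal-handling genes was made and Slc30a1 was picked from the held genes, so such genes were not assessed as a group. Mt2, coding for metallothionein 2, a cysteine-rich protein that binds zinc and copper, had a median of 394 CPM (199 to 882) in WT and 1206 CPM (819.9 to 1596) in TG. The log2 change was 1.27 ± 0.23 (adjusted p 0.00423), and all 10 TG libraries were above the WT mean, with WT replicate 1 the only WT library within the TG range. Its neighbour Mt1 was at 491 ± 219.6 CPM (mean ± SD) in WT and 808 ± 154 in TG (log2 change 0.72 ± 0.21) and did not pass the test, with an adjusted p of 0.0946. Slc30a1, the zinc exporter of the cell membrane, which like the metallothioneins is switched on by the zinc sensor MTF1, was held higher, with a log2 change of 0.59 ± 0.12 (adjusted p 0.00227). The core metal response element, TGCNCNC, is short and was found for 58.2% of all genes searched, 75% of the held higher genes and 58.8% of the held lower genes. A gene counts when any of its starts has a match, so genes with several starts have more chances. Mt2 had 5 matches, a number that 0.754% of the genes reached, while Mt1 and Slc30a1 had 1 each. These counts hold only for the window before the annotated start. Elements after that start or farther before it were not searched, so the counts do not rank the genes by their elements. The Mt2 window is shown with its matches in capitals on either strand.
Mt2, chr8:94172368-94172617, + strand: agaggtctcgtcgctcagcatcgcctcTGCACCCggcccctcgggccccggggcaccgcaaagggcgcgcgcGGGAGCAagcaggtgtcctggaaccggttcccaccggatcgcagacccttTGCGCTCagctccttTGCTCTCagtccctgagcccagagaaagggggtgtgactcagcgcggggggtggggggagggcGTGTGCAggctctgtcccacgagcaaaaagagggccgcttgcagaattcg

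RNA-binding proteins of splicing moved in both directions. Of 39 tested genes, 5 rose and 4 fell, and the list median was 0.049. Srsf5, a serine- and arginine-rich splicing factor, rose from a median of 229 CPM (170.4 to 265) in WT to 442 CPM (355 to 554) in TG, without overlap (log2 change 0.999 ± 0.086). Cirbp, a cold-inducible RNA-binding protein, also separated the genotypes, with medians of 29.04 CPM (20.6 to 38.5) and 61.1 CPM (44.2 to 84.7) (log2 change 1.16 ± 0.12). Rbm3, the other cold-inducible RNA-binding protein, had 98 counts over the WT and 89 over the TG libraries and was not tested. The held lower members were factors of splice site choice. Tra2a fell from a median of 133 CPM (96.2 to 157) in WT to 89.5 CPM (83.8 to 129.9) in TG (log2 change -0.44 ± 0.093). Luc7l3, which associates with U1 snRNP, fell from 176 CPM (158 to 218) to 147 CPM (122 to 167) (log2 change -0.34 ± 0.075). Rbm5 fell from 103 CPM (78.1 to 112) to 81.6 CPM (59.1 to 93.5) (log2 change -0.33 ± 0.081). These ranges overlap, with every TG library below the WT mean for each of the 3. The nuclear speckle gene Rsrp1 was held lower too (log2 change -0.49 ± 0.10). Rbm24, a muscle splicing regulator (log2 change 0.25 ± 0.064), Srsf3 (0.30 ± 0.080) and Ddx5 (0.23 ± 0.064) were called higher and Luc7l lower (-0.44 ± 0.12), but these calls were lost in 3, 11, 16 and 11 of the 20 fits without 1 library. Mbnl1, Mbnl2 and Celf2, the most counted members, had log2 changes of -0.14, -0.060 and -0.0054 and were not called.

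In the integrated stress response list 2 of 15 tested genes fell and none rose, with a median of -0.19. Slc38a2, the neutral amino acid transporter SNAT2 that cells raise when amino acids run short, had a median of 525 CPM (458 to 885) in WT and 352 CPM (234 to 407) in TG. The genotypes did not overlap, and the log2 change was -0.79 ± 0.12 (adjusted p 1.83e-04). WT replicates 2 and 10 had its highest levels, and without them the change was -0.63 with an adjusted p of 5.65e-06. Chac1, which breaks down glutathione and is a target of ATF4, fell from a median of 56.6 CPM (37.1 to 89.7) in WT to 29.8 CPM (17.8 to 38.5) in TG (log2 change -1.03 ± 0.15, adjusted p 1.95e-05), the ranges overlapping through WT replicate 3 and TG replicate 4. Atf4 itself was not called (log2 change -0.24 ± 0.11, adjusted p 0.352), nor were Vldlr (-0.19) and Gpt2 (0.017), the other much counted members. Outside the list, Slc7a2, a carrier of arginine and lysine, was held lower (log2 change -0.60 ± 0.14). Slc7a8, a carrier of neutral amino acids, was held higher (log2 change 0.41 ± 0.10). Flcn, coding for folliculin, which relays amino acid supply to mTORC1, was held lower (log2 change -0.61 ± 0.12, adjusted p 0.00227).

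The composite element that ATF4 binds, TGATGNAA, was found for 2.26% of the genes searched, for 2 of 34 of the held lower genes (5.88%) and for none of 44 of the held higher genes. Chac1 was 1 of those 2, the other being Ppp1r10, and Slc38a2 had no match in this window. The Chac1 window is shown with the match in capitals, on the reverse strand.
Chac1, chr2:119350992-119351241, + strand: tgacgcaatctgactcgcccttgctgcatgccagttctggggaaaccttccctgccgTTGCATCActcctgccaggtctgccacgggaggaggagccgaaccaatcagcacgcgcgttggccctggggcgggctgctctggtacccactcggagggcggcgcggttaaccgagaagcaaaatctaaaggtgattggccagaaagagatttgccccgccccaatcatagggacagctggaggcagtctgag
The full cAMP response element, TGACGTCA, which CREB1 binds, was found for 3.30% of the genes searched. It was found for 5 of the 34 held lower genes with a promoter (14.7%): Dusp1, Flcn, Tra2a, Zbtb11 and Wdr82. Among the 44 held higher genes 1 had it (2.27%), Errfi1. Creb1 itself was held lower, with medians of 82.4 CPM (72.1 to 101) in WT and 57.3 CPM (51.6 to 65.4) in TG and no overlap (log2 change -0.58 ± 0.083). Of the 20 tested genes of adrenergic and cAMP signalling it was the only call. These shares describe 250 bases and few genes, and no test was made of them. The other motifs searched were the E-box CACGTG (10.4% of all, 15.9% of held higher and 11.8% of held lower genes), the heat shock element GAANNTTC (5.69%, 4.55% and 2.94%) and the NF-kB site (0.189% of all and no held gene). Matches to different motifs can share letters: the glucocorticoid match before Sgk1 holds a heat shock match within it. The counts of these motifs are therefore not separate for that gene. The windows of Dusp1 and Flcn are shown with the element in capitals.
Dusp1, chr17:26508473-26508722, - strand: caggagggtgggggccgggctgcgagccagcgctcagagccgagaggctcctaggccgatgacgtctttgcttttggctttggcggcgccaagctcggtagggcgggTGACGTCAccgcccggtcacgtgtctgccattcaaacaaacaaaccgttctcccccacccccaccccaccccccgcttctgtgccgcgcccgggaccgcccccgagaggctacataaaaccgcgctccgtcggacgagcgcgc
Flcn, chr11:59810040-59810289, - strand: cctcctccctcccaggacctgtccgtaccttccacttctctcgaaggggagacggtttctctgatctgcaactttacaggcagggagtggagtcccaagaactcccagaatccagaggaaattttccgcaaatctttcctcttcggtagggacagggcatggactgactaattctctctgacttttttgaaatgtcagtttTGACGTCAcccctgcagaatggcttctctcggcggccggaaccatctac

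Of 33 tested genes of glucose uptake and glycolysis, the regulators Pfkfb3 and Pdp1 rose, the other 31 were not called, and the median was -0.021. Pdp1, the phosphatase that activates pyruvate dehydrogenase and is found mainly in muscle, rose from a median of 98.7 CPM (77.002 to 114) in WT to 133 CPM (129 to 157) in TG, without overlap (log2 change 0.49 ± 0.079, adjusted p 9.35e-05). Pfkfb3, whose product fructose 2,6-bisphosphate drives phosphofructokinase, rose from 57.1 CPM (35.8 to 75.9) to 109 CPM (65.4 to 197) (log2 change 1.003 ± 0.16, adjusted p 5.09e-04), with TG replicate 10 highest. The insulin-responsive transporter GLUT4 (Slc2a4) had 643 ± 83.2 CPM (mean ± SD) in WT and 623 ± 53.1 in TG (log2 change -0.044 ± 0.068, adjusted p 0.886). Aldoa, Ldha, Eno3 and Pfkm, enzymes of glycolysis, had log2 changes of -0.050, -0.024, -0.10 and -0.067. None of the 18 tested glycogen genes was called by edgeR or DESeq2, with 1 higher and 2 lower at an unadjusted p under 0.05, and Pygm, the muscle glycogen phosphorylase, had a log2 change of -0.061.

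In the insulin and mTOR list, 1 of 30 tested genes rose and 1 fell. Ptpn1, the phosphatase that silences the insulin receptor, was higher (log2 change 0.44 ± 0.12) and the receptor substrate Irs1 lower (-0.43 ± 0.11), but neither was held: the calls stood in 7 and 11 of the 20 fits without 1 library and both were lost without WT replicates 2 and 10 (log2 change 0.44 at an adjusted p of 0.0619, and -0.38 at 0.105). The other substrate, Irs2, had a log2 change of -0.51 ± 0.14 that missed the threshold with an adjusted p of 0.0606. Of 51 respiratory chain and ATP synthase genes none was called by edgeR or DESeq2, none had an unadjusted p under 0.05, and the median log2 change was 0.0013. The same held for 21 genes of mitochondrial biogenesis and dynamics and 7 mitochondrially encoded genes. Neither tool called any of 35 fatty acid genes (3 higher and 1 lower at an unadjusted p under 0.05), 19 tricarboxylic acid cycle genes (1 higher) or 11 phosphagen and purine cycle genes (2 lower). Ppargc1a, the coactivator of mitochondrial biogenesis, was at 173 ± 42.1 CPM (mean ± SD) in WT and 148 ± 22.8 in TG (log2 change -0.23 ± 0.12, adjusted p 0.479).

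**Figure D3:**
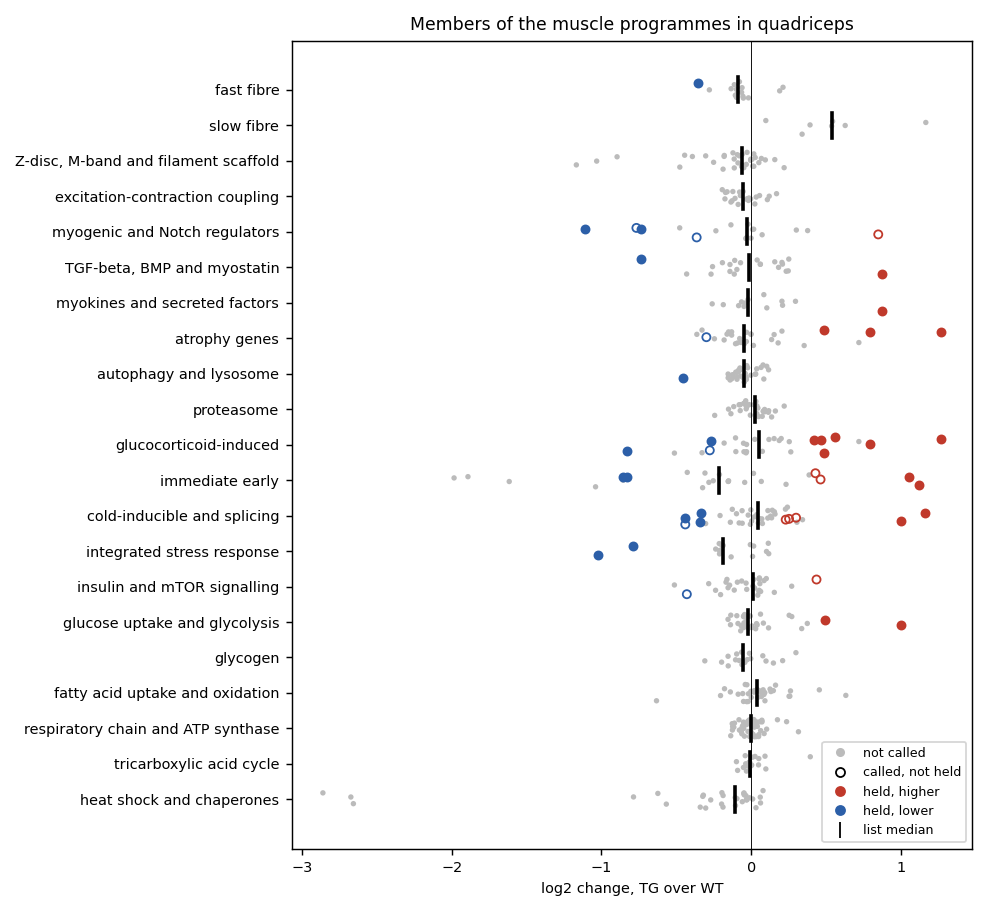
Log2 change of TG over WT (horizontal) of the tested members of 21 gene lists (vertical), 1 point per gene, with the list median as a black bar. Filled red and blue points are held higher and lower members, open coloured points are called but not held, and grey points are not called. The glucocorticoid-induced, immediate early and splicing lists hold calls on both sides of 0, while the respiratory chain, proteasome and glycogen lists hold none.

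Among 29 tested atrophy genes, Ddit4, Cdkn1a and Mt2 rose and Asb2 fell. The ubiquitin ligases that define muscle wasting were not among them. Fbxo32 (atrogin-1) was at 1549.8 ± 404 CPM (mean ± SD) in WT and 1234 ± 274 in TG (log2 change -0.33 ± 0.16, adjusted p 0.430), and Trim63 (MuRF1) had a log2 change of -0.031 ± 0.13 (adjusted p 0.968). Asb2, a subunit of a muscle ubiquitin ligase that targets filamins, lay at 391.99 CPM (356 to 496) in WT and 313 CPM (285 to 414) in TG (log2 change -0.30 ± 0.074). That call was lost without WT replicate 8, at an adjusted p of 0.0503. Gabarapl1, a protein of the autophagosome membrane, was the only call of 33 autophagy and lysosome genes. It fell from a median of 106 CPM (77.4 to 141) in WT to 77.2 CPM (58.8 to 101) in TG (log2 change -0.46 ± 0.10, adjusted p 0.00592). None of 32 proteasome genes was called by edgeR or DESeq2, with 2 higher and 1 lower at an unadjusted p under 0.05. Trp53inp1, a p53 target that also acts in autophagy, was held higher (log2 change 0.68 ± 0.10). The survival factor Mcl1 was held lower (log2 change -0.33 ± 0.081), although it had an adjusted p of 0.0753 without WT replicates 2 and 10.

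Signalling genes outside the lists were called in both directions. Frat1 and Frat2, neighbours 13.4 kb apart that bind GSK3 and favour beta-catenin, both rose. Frat1 had a median of 16.2 CPM (7.20 to 28.3) in WT and 44.1 CPM (27.9 to 59.9) in TG, with overlap through 1 library of each genotype (log2 change 1.34 ± 0.16). Frat2 had 49.1 CPM (35.01 to 66.7) and 108 CPM (70.1 to 130.1), without overlap (log2 change 1.03 ± 0.11). Rhob, a small GTPase, rose from a median of 84.95 CPM (73.5 to 110.1) in WT to 174 CPM (148 to 248) in TG, without overlap (log2 change 1.05 ± 0.091). The exchange factor Net1 (log2 change 1.01 ± 0.23), the Ras relative Mras (0.74 ± 0.13) and the Rab5 exchange factor Rin2 (0.82 ± 0.12) were held higher. Mtss1, which binds membranes and actin, had a median of 80.6 CPM (63.6 to 89.7) in WT and 131 CPM (96.2 to 143) in TG, without overlap (log2 change 0.65 ± 0.081). Wasf2, an activator of actin branching, was held higher (log2 change 0.39 ± 0.093) and the actin-binding Lasp1 was held lower (log2 change -0.58 ± 0.13). Of kinases in cytokine signalling, Jak2 (log2 change -0.40 ± 0.083) and Pim1 (-0.73 ± 0.16) were held lower. Prkcd, a protein kinase C, was held higher (log2 change 0.54 ± 0.11). C2cd2, coding for a membrane protein with a C2 domain, fell from a median of 386 CPM (332 to 441) in WT to 297 CPM (238 to 324) in TG, without overlap (log2 change -0.42 ± 0.067). C2cd2 shares its strand with the overlapping gene Zbtb21.

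The immediate early list had 4 higher and 2 lower calls of 25 tested. Gadd45b, a stress-response gene that activates kinases, was held higher, from a median of 19.9 CPM (9.97 to 42.8) in WT to 49.7 CPM (27.5 to 69.1) in TG (log2 change 1.12 ± 0.21), as was Rhob. Gadd45g (log2 change 0.46 ± 0.12) and Zfp36, which degrades cytokine mRNAs (0.43 ± 0.11), were called higher, in 15 and 14 of the 20 fits without 1 library. Ier3, an early gene of cell survival, fell from 45.6 CPM (22.6 to 63.04) to 21.6 CPM (13.1 to 39.9) (log2 change -0.86 ± 0.18), and Dusp1 is described above. Jun, the most counted member, did not pass the test (log2 change -0.15 ± 0.20). The list's median log2 change of -0.21 changed sign, to 0.046, without WT replicates 2 and 10.

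Outside the lists, some histone and chromatin genes were among the held genes. H3f3b, which codes for the replication-independent histone H3.3, rose from a median of 159 CPM (119 to 224) in WT to 272 CPM (207 to 330.00) in TG (log2 change 0.73 ± 0.095, adjusted p 3.62e-06). The linker histone gene Hist1h1c was held higher (log2 change 0.51 ± 0.069), and its genotypes did not overlap. The remodeller Chd6 fell from 82.7 CPM (58.3 to 127) to 51.8 CPM (39.8 to 72.4) (log2 change -0.81 ± 0.12). Baz1b (log2 change -0.43 ± 0.084) and Kmt2e (-0.34 ± 0.071), both chromatin regulators, were held lower. Kmt2e overlaps Srpk2 on the opposite strand. Tmcc1, an endoplasmic reticulum membrane protein, fell from 238 CPM (216 to 291) to 182 CPM (174 to 201) (log2 change -0.41 ± 0.065). Banp, a nuclear matrix protein that binds DNA, fell from 32.9 CPM (24.05 to 51.3) to 15.6 CPM (11.2 to 23.8) (log2 change -1.05 ± 0.16). Ppp1r10, a nuclear targeting subunit of protein phosphatase 1, fell from 27.6 CPM (17.6 to 37.8) to 11.1 CPM (5.58 to 17.02) (log2 change -1.31 ± 0.16). For Tmcc1, Banp and Ppp1r10 every TG library lay below every WT library. Among repressors of transcription, the clock gene Bhlhe41 rose (log2 change 0.54 ± 0.088), the only call of 20 clock genes. Tiparp, a repressor of the dioxin receptor, rose (log2 change 1.16 ± 0.12) and Bach2 fell (log2 change -1.04 ± 0.21). Osgin1, a target of the oxidative stress factor NRF2, was held lower (log2 change -1.09 ± 0.19).

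No heat shock gene of 31 tested was called by edgeR, although 11 had an unadjusted p under 0.05, all lower in TG. Over all tested genes, 5.48% were higher and 6.20% lower at an unadjusted p under 0.05. Other fits called some members, all lower in TG. With DESeq2 these were Dnajb1, Dnaja1 and Hspa1b, without edgeR's robust option Dnajb1, Hspa1a and Hspa1b (adjusted p 0.0110, 0.0122 and 0.0107), and without WT replicate 6 Hspa1a (adjusted p 0.0495). Dnajb1 and Dnaja1, co-chaperones of HSP70, are named here after their values were seen. Hspa1a, the inducible HSP70, was at 19.96 to 1192 CPM over the WT and 17.3 to 62.1 CPM over the TG libraries (log2 change -2.67 ± 0.76, adjusted p 0.0846), with WT replicates 2 and 10 highest. Without them the log2 change was -0.76 (adjusted p 0.438). Hspa1b, a near-identical copy whose reads may be shared with it, went from -2.86 with them to -0.91 without. Dnajb1 was called without WT replicates 2 and 10, with a log2 change of -0.98 and an adjusted p of 0.00405. Rcan1, an inhibitor of calcineurin that calcium signals induce, was called lower in TG, the only call of 18 calcineurin and calcium kinase genes. Its median was 131 CPM (78.8 to 565) in WT and 67.1 CPM (50.1 to 128) in TG (log2 change -1.35 ± 0.34, adjusted p 0.0459), and was called in 5 of 20 fits without 1 library. WT replicates 2 and 10 were again highest, and without both the change was smaller, -0.73, at an adjusted p of 0.00696. The part of these libraries in the other results was measured by leaving both out: 151 genes were then called, 130 of them among the 164, and 96 of the 100 held genes with an official symbol and a mean of at least 5 CPM were still called. The other 4 were Alpk2, Mcl1, Rpp21 and Trim16.

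The calls were also placed along the genome. Of the 164, 10 pairs of nearest calls lay within 100 kb of each other, 6 of them moving the same way. The like count for other tested genes was not made, so these numbers do not show that calls cluster or that neighbours move together. Txnl1 and Wdr7 overlap on opposite strands of chromosome 18 and both fell. Txnl1, coding for a thioredoxin-like protein of the proteasome, fell from a median of 186 CPM (156 to 226) in WT to 101 CPM (86.8 to 124) in TG (log2 change -0.90 ± 0.078). Wdr7, coding for a regulator of the vacuolar proton pump, fell from 46.6 CPM (32.2 to 64.1) to 23.2 CPM (14.5 to 31.2) (log2 change -1.04 ± 0.14). Neither gene's genotypes overlap. The stretch that the 2 genes share lies at the start of each, while expression was read from the 3′ ends. Within that stretch, reads cannot be told apart without the strand setting of the counting. Within 3 Mb on either side of Txnl1 the only other call among the tested genes was Alpk2, a kinase gene of heart and muscle 1604 kb away (log2 change -0.44 ± 0.11, adjusted p 0.0155). Its adjusted p was 0.0602 without WT replicates 2 and 10. Frat1 with Frat2, Cdkn1a with Srsf3 and Ppp1r10 with Ier3 were other pairs that moved the same way.

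Most of the muscle calls were not calls in fat. Of the 164, 148 were tested in pgWAT at 1 h, and 4 were called there in the same direction. Only 8 genes (0.0722% of all tested there) were called in that set. At 6 h, where 14.4% of all genes were called, 45 of 152 were called in the same direction and 18 in the opposite. The difference between the tissues was tested directly in 1 edgeR fit over each pair of sets. Against 1 h, 26 of 148 muscle calls differed (background 0.382%), 19 of them higher in quadriceps. Against 6 h, 68 of 152 differed (background 6.59%), 33 higher and 35 lower. Since these genes were chosen for their change in muscle, a larger change there than in fat is in part set by the choice. Tissue, clamp, time after CNO, depth and, for 6 h, the library kit differ together between the sets and cannot be told apart. Gene counts per library were 959980 to 2613672 in quadriceps, 976610 to 4852560 in fat at 1 h and 9150496 to 12883462 at 6 h.

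In all, 13 of the calls differed from both fat sets. Both tests share the quadriceps libraries that gave the calls, and the share of all genes that differed from both was not counted. The 13 included Orm3, Srsf5, Ppp1r10, Mtss1, Sox4, Chd6, Mras, Dusp1, Pfkfb3 and Gadd45b. Sox4 had a log2 change of 2.77 ± 0.27 in muscle, 0.50 ± 0.15 in fat at 1 h and -0.47 ± 0.15 at 6 h, so that the tissues differed by 3.24 ± 0.35 at 6 h (adjusted p 1.03e-07). Pfkfb3 rose in muscle and fell in fat at 6 h (log2 change -1.31 ± 0.19, adjusted p 6.16e-04), a difference of 2.33 ± 0.26 (adjusted p 1.18e-07). Bhlhe41 also fell in fat at 6 h (log2 change -1.58 ± 0.27, difference 2.14 ± 0.24, adjusted p 7.09e-08), and so did Mtss1 (-0.62 ± 0.081, difference 1.29 ± 0.11, adjusted p 3.77e-11). For several glucocorticoid-induced genes the change in muscle was smaller than in fat at 6 h. Ddit4 had a log2 change of 2.44, Errfi1 of 2.28, Cdkn1a of 2.07 and Sgk1 of 1.28 in fat, and the differences of quadriceps minus fat were -1.93, -1.79, -1.24 and -0.83, with adjusted p-values from 3.50e-07 to 0.0174. Tsc22d3 was opposite in sign, -0.27 ± 0.064 in muscle and 1.68 ± 0.13 in fat at 6 h, a difference of -1.92 ± 0.13 (adjusted p 2.02e-14). Glul was also higher in fat at 6 h (log2 change 0.74 ± 0.081), a difference of -0.99 ± 0.12 (adjusted p 1.59e-07). Mt2 had a log2 change of 2.47 ± 0.35 in fat at 6 h, and its difference between the tissues did not pass the test (-1.18 ± 0.39, adjusted p 0.0705). Txnl1 and Wdr7 were called lower in all 3 sets. In fat Wdr7 had log2 changes of -0.87 at 1 h and -1.03 at 6 h. Txnl1 had an adjusted p of 4.44e-08 at 1 h and a log2 change of -0.81 at 6 h. Their differences between the tissues did not pass the test for either gene at either time. Creb1 was lower in fat at 6 h too (log2 change -0.37 ± 0.078, adjusted p 0.00336), with a difference from muscle of -0.18 ± 0.11 (adjusted p 0.441).

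**Figure D4:**
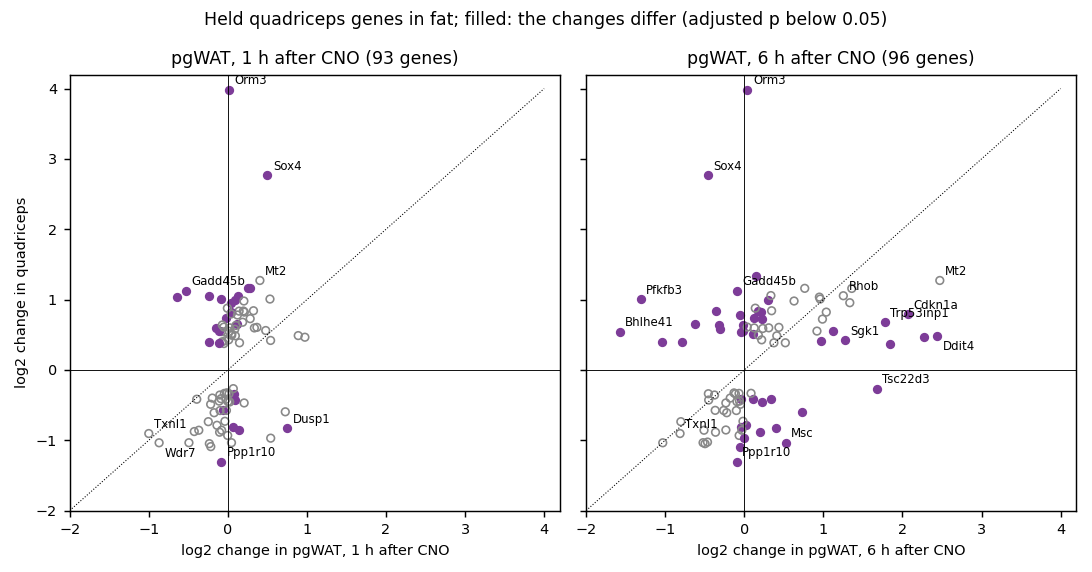
Log2 change of TG over WT in quadriceps (vertical) against that in pgWAT at 1 h (left) and 6 h (right), for the held genes with an official symbol and a mean of at least 5 CPM that were tested in fat (93 and 96 genes). Filled points differ between the tissues at an adjusted p under 0.05, and the dotted line marks equal change. At 6 h Ddit4, Mt2, Cdkn1a and Tsc22d3 lie to the right of the line, and Sox4 and Pfkfb3 to its left.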

How the data were processed

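Quadriceps RNA was extracted with a column kit for fibrous tissue with proteinase K and made into 3′ mRNA libraries with a second strand module that adds molecular identifiers, per the labels' protocols. The submitters' processing notes list bcl2fastq 2.20.0.422, UMI-tools 1.1.2, cutadapt 1.18, STAR 2.7.10 and the builds GRCm39 and GRCm38, with no roles. Neither the counting program nor its annotation, strand setting or use of the identifiers is given in the sources used here. The authors deposited whole-number counts without normalization, and 5 summary rows, which left a mean of 74.9% to genes, stayed out of tests and totals. Samples were grouped by title; the treatment entry of TG replicate 10 names 1 h, and the title was followed. TG minus WT was tested with edgeR 4.0.16 in R 4.3.3 (filterByExpr, TMM, robust quasi-likelihood F test, Benjamini-Hochberg adjustment, threshold 0.05), with log2 changes given ± SE and levels in CPM. Interactions with fat used the same test. DESeq2 1.42.0 and other settings were alternatives. The script was tested on simulated data. Positions are GENCODE vM21 on GRCm38. The 47 lists (33 programmes, 14 marker lists, 943 genes) and the members were chosen with earlier results of these data known. Named were held genes averaging 5 CPM or more whose symbol is not a predicted model, called list members, the 4 most counted members of a list, and 15 genes fixed by name. Values by library were given for the 12 smallest p in each direction and for called list members, of which 1 is not reported here. Replicate numbers did not pair the libraries: same-numbered TG and WT libraries correlated at -0.179 to 0.200, over 0.1 in 3 of 10.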

Additional observations from a re-analysis of the deposited data

Results flagged for a closer look

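Single libraries stood apart in 12 of 130 groups of 10 values checked, for 65 genes. The critical value is set for about 1 in 20 groups of independent, normally distributed values. These genes share libraries and were chosen for their calls or by name, and no rate was worked out for such values. WT replicate 2 was high for Myod1 (92.5 CPM), Gadd45g (323 CPM) and Rcan1 (565 CPM), and WT replicate 10 was high for Dusp1 (458 CPM) and low for Mtss1 (63.6 CPM). Among the other WT libraries, replicate 3 was high for Orm3 (3.90 CPM), replicate 1 low for Rbm5 (78.1 CPM) and replicate 8 low for Ddx5 (299 CPM). Among TG libraries, replicate 10 was high for Pfkfb3 (197 CPM), replicate 2 high for Gadd45g (406 CPM), replicate 8 high for Rcan1 (128 CPM) and replicate 1 low for Ddit4 (474 CPM).

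For the genes of smallest p, the log2 change in quadriceps differed from that in fat at 1 h, in the direction of a higher value in muscle, for Orm3 (4.02), Sox4 (2.29), Frat2 (1.68), Rhob (0.93), Srsf5 (0.92), Tiparp (0.91), Cirbp (0.89) and Mtss1 (0.54). It was lower in muscle than in fat at 1 h for Dusp1 (-1.58), Ppp1r10 (-1.21), Chd6 (-0.87) and Creb1 (-0.50). Against fat at 6 h the difference was positive for Orm3 (4.06), Sox4 (3.24), Mtss1 (1.29), Frat1 (1.22), Srsf5 (0.73) and H3f3b (0.53). It was negative for Dusp1 (-1.21), Ppp1r10 (-1.19), Slc38a2 (-0.78), Chd6 (-0.74), Nfkbia (-0.54), Tmcc1 (-0.50) and C2cd2 (-0.35).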

How the results depend on the processing

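The 164 calls became 179 with DESeq2 (147 shared), 161 with relative log expression factors, 167 with upper quartile factors, 158 with a minimum mean of 10 CPM, 167 without the robust option, 180 with the remainder of the library number (in the labels) divided by 8 as a factor and 141 without TG replicate 10, whose treatment entry names 1 h. Without the filter on low counts 240 genes were called, and the lower ones rose from 76 to 120; the cause was not tested. The same setting took the genes whose change differed between quadriceps and fat at 1 h from 29 to 16, over 28883 genes tested instead of 7586. With the replicate number as a block, although the numbers did not pair the libraries, 144 genes were called, 79 higher and 65 lower, 131 shared, and among the held named genes the calls of Net1 (log2 change 1.02, adjusted p 0.0651) and Slc7a2 (-0.56, adjusted p 0.0817) were lost. Leaving out 1 library gave 65 (without WT replicate 5) to 100 (without WT replicate 6) higher genes and 57 (without TG replicate 9) to 98 (without WT replicate 6) lower genes. No called gene that is named reversed its sign under any setting run. Of the named genes that were not called, Pdk4, Trim63 and Slc2a4 lay near 0 and changed sign under some settings, Pdk4 from -0.22 to 0.37, Trim63 from -0.085 to 0.062 and Slc2a4 from -0.071 to 0.00062 without 1 library. Within the libraries of remainder 5 (6 TG, 6 WT) 75 genes were called, and within those of remainder 6 (4 TG, 4 WT) 37. Of 21711 genes with a count, 8070 were deep enough to be tested.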

Other observations

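Genes outside the muscle lists included further held members with known roles. Eln, coding for elastin, rose without overlap from a median (range) of 16.2 CPM (13.2 to 22.6) in WT to 26.5 CPM (22.9 to 31.5) in TG (log2 change 0.60 ± 0.13), while none of 27 tested extracellular matrix genes of the list was called by edgeR or DESeq2, with 2 higher at an unadjusted p under 0.05. Sertad2, a cofactor of E2F, also separated the genotypes (log2 change 0.55 ± 0.083). Tob1, an antiproliferative protein (log2 change 0.40 ± 0.091), Jup, the junction protein plakoglobin (log2 change 0.58 ± 0.14), and the adhesion molecule Cadm1 (log2 change 0.60 ± 0.14) were higher. Orm1 and Orm2, relatives of Orm3, were too rare to be tested, with 30 and 87 counts over the WT and TG libraries for Orm1 and 0 and 5 for Orm2. Ucp1, the brown fat uncoupler, had 310 counts over the WT libraries, 191 of them in WT replicate 6, and 47 over the TG libraries.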
